A study of Drosophila melanogaster with 6 samples.

Results

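The genes described here are autosomal genes of Drosophila S2 cells that were barely expressed in control cells and that the authors' deposited table listed as changed after RNA interference (RNAi) against HP1a. They were chosen by measured values, namely the authors' adjusted p for HP1a RNAi and a mean of the 2 control libraries under 150 normalized counts, among genes outside chromosomes X and 4. Of 401 listed autosomal genes, 80 met that limit. The selection left out 7 of them by name (vas, osk, modSP, NimB1, Cht3, CG10178 and names that begin with Cyp or Ugt), which gave 73 genes. A normalized count is a read count divided by a size factor of its library.

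The study sequenced polyadenylated RNA of S2 cells, an embryo-derived line that resembles haemocytes, the fly's blood cells, after 5 days of RNAi in medium with 10% serum at 25 °C. Cells received double-stranded RNA against GFP (the control), against HP1a, or against dKDM4A, a histone demethylase. Each group had 2 libraries. Nothing in the labels said that replicates came from separate cultures, so the spread between them may be technical.

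HP1a is the main heterochromatin protein of the fly. It binds histone H3 methylated at lysine 9 and is known for silencing genes and transposons near centromeres and for holding some genes that lie within heterochromatin in an expressed state. RNAi lowers the protein rather than deleting its gene, and all cells of a culture are read together. In such bulk samples, a gene read at a higher level in every cell cannot be told apart from a gene switched on in a few cells.

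The mRNA of the HP1a gene was at 60.1% of its control level in the HP1a RNAi libraries. Kdm4A was at 286% of its control level in the libraries labelled dKDM4A RNAi, against that label. Of 4 genes that define S2 and haemocyte identity (Hml, Pxn, NimC1 and srp), only Pxn was listed for HP1a RNAi, at 163909 normalized counts in control and 370517 in HP1a RNAi. The levels of the other markers were not analysed here, because only listed rows were at hand.

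The 73 genes were mostly higher after HP1a RNAi. The count was 63 higher and 10 lower, or 86.3% higher, against 182 higher of the 321 other listed autosomal genes, or 56.7%. Listing itself chose these genes, and 6.46% of all features tested were listed (4.18% higher and 2.28% lower), so direction and size are given as a description with no test. Both HP1a RNAi libraries lay on the same side of both control libraries in all 73 genes, as in all 535 listed features (64.7% higher and 35.3% lower). With 2 libraries against 2, an exact two-sided permutation test of a single gene cannot give a p below 0.333.

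The control level of a gene limited the direction in which it could be listed. The lowest mean over 4 libraries of any listed feature was 25.9 normalized counts, and 14 of the 73 genes had a control mean below it. A gene at that level could be listed only by being higher. All 26 genes with a control mean under 50 were higher, as were 25 of 29 between 50 and 100 and 12 of 18 between 100 and 150. Above the limit, 28 of 34 listed autosomal genes between 150 and 300 were higher, 50 of 73 between 300 and 1000 and 104 of 214 at 1000 or more. The share did not fall steadily with level, and the mostly upward direction extended beyond the limit of 150. The smallest listed change also grew as the level fell, from 0.19 on the authors' log2 scale at 1000 or more to 0.77 under 50.

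**Figure D1:**
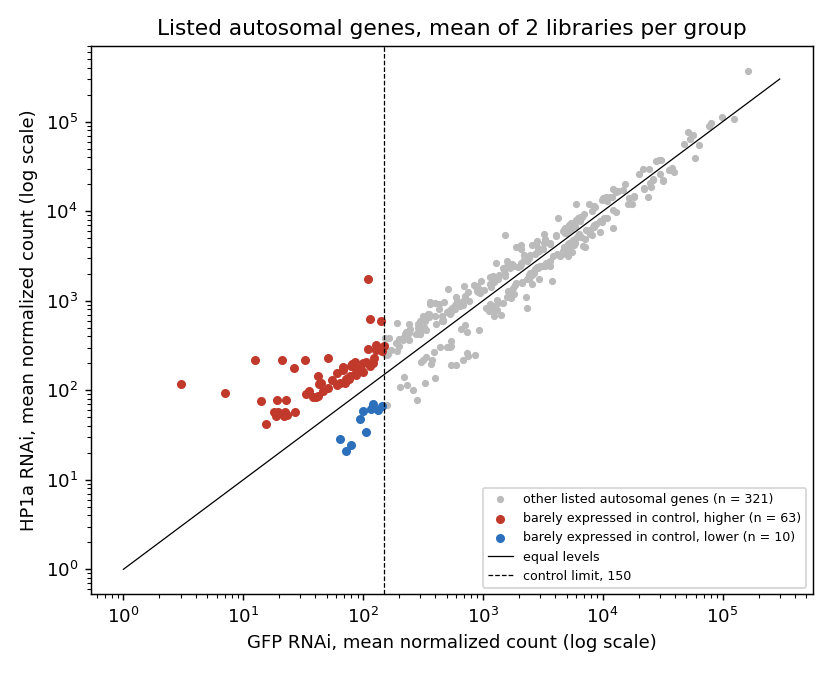
Mean normalized count in GFP RNAi (horizontal) and HP1a RNAi (vertical), both on log scales, n = 2 libraries per group, for the 73 genes (coloured, left of the dashed limit of 150) and the 321 other listed autosomal genes (grey). The 63 red points lie above the line of equal levels and the 10 blue points below it, with CG18605 the highest coloured point and l(3)mbn farthest left.

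Most of the increases were modest in size and few brought a gene to a high level. By the ratio of mean normalized counts, 45 of the 73 genes were at least 2-fold higher, against 22 of the 321 others. Over all listed autosomal genes, with these 73 included, the share was 18.2%. Among the 73, the number was 25 by the log2 fold change of the authors' deposited table and 29 with a pseudocount of 20 on both means. By the plain ratio, 12 were at least 4-fold higher and 5 at least 10-fold higher. None of the 321 other genes reached 4-fold. The median ratio was 2.16 over the 73 genes and 1.22 over the others. Both medians pool higher and lower genes, and the 63 higher genes alone had a median of 2.37. The selection took low control levels, where only larger changes were listed, so these contrasts in size are partly set by it. The level after HP1a RNAi was 150 or more for 30 of the 73 genes and above 500 for 3 of them, while 33 of the 63 higher genes were still under 150. Per kilobase of annotated exon, the median of the 70 genes with an annotated length moved from 40.6 normalized counts in control to 73.8, and only CG18605 passed the median of the others in HP1a RNAi, which was 1012.

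The gene that reached the highest level was CG18605, a protein-coding gene of chromosome arm 2R (18977514 to 18979279, plus strand). Its libraries held 119.8 and 102 normalized counts in control and 1676 and 1837 in HP1a RNAi. The group means, 111 ± 12.7 and 1756 ± 114 (SD, n = 2 each), were far apart and the replicates of each lay close together. The ratio of means was 15.9, and the authors' deposited table gave a log2 fold change of 3.73 ± 0.14 (SE). Its neighbour Topors, which encodes an insulator-associated ubiquitin ligase, lay 251 bp away and was not listed.

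The largest ratio was that of l(3)mbn on arm 3L (6123934 to 6128807, minus strand), a gene first known from a mutation that gives overgrown larval blood cells. Its control libraries held 4.68 and 1.39 normalized counts, which is 5 reads and 1 read, and the HP1a RNAi libraries 104 and 131. The pooled reads gave a ratio of 34.7, with an exact 95% binomial interval from 15.7 to 95.4 that covers counting error only. The gene was selected on these same libraries for a low control level and for being listed. The interval does not allow for that, and the ratio may be too high. The authors' deposited table listed it at 2.87 ± 0.29 (SE) on the log2 scale, and in all 63 higher genes that deposited value was below the log2 of the ratio of means. The ratio of means of l(3)mbn was 38.8 with all libraries, 84.4 without replicate 1 of control and 25.2 without replicate 2. The gene stands beside a cluster of larval cuticle genes, 1578 bp from Lcp65Ag3. Annotated antisense RNA covers 48.6% of its exon length on the other strand, and no source used here gives the strand setting of the counting, so reads of the pair cannot be told apart.

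CG11929 and CG3251 are neighbours on arm 2L and had few reads in control. CG11929 (4682677 to 4687232, plus strand) held 5.61 and 8.36 normalized counts in control and 96.0 and 92.3 in HP1a RNAi. CG3251 (4688965 to 4690702, minus strand) held 16.8 and 8.36 in control and 225 and 216 in HP1a RNAi. In both genes the HP1a RNAi libraries nearly coincided, and every control library lay far below them. Ratios of pooled reads were 14.0 (exact 95% interval 7.87 to 27.6, from 12 control reads) and 16.4 (10.9 to 25.9, from 24 control reads). These intervals cover counting error only. Both genes were selected on these same libraries for a low control level and for being listed. The intervals do not allow for that, and the ratios may be too high. The ratio of means of CG3251 was 17.5, and 26.4 without replicate 1 of control. The gene between them is Elba3, a subunit of an insulator complex of the early embryo. It lies 278 bp from CG11929 and 8 bp from CG3251 and was not listed.

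A pair on arm 2L near the centromere comprised tio and CR33987. Tio (tiptop) encodes a zinc finger transcription factor and is the paralogue of tsh (teashirt), a patterning gene of the trunk. It lies at 22019208 to 22025734 on the plus strand and held 18.7 and 23.7 normalized counts in control and 245 and 188 in HP1a RNAi, a ratio of 10.2. CR33987, a non-coding RNA with the same start and strand, held 13.1 and 15.3 in control and 91.1 and 60.9 in HP1a RNAi, a ratio of 5.35. In both genes replicate 1 of HP1a RNAi was the higher library. The groups did not overlap, which holds for every listed feature. Exons of tio cover 84.3% of the exon length of CR33987, which is 15.5% of that of tio, so most reads of CR33987 could come from tio. The paralogue tsh, which is abundant in these cells, was listed in the other direction at 16159 normalized counts in control and 11944 in HP1a RNAi, 1.35-fold lower.

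CR40282 and CR41440, annotated pseudogenes of arm 2R, lie 272 bp apart on opposite strands at 4730439 to 4731241 and 4731514 to 4732343. CR40282 held 30.9 and 22.3 normalized counts in control and 191 and 162 in HP1a RNAi. CR41440 held 33.7 and 32.1 in control and 211 and 228 in HP1a RNAi. Their ratios, 6.64 and 6.68, were nearly the same. A non-coding RNA annotated on the other strand covers 88.4% of the exon length of CR40282. Further along the arm, the non-coding RNA CR42646 held 18.7 and 19.5 in control and 76.6 and 79.0 in HP1a RNAi, a ratio of 4.07.

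The 12 largest increases also included 3 genes outside these pairs. CG18446, named Lime in the current annotation and encoding a zinc finger protein, held 119.8 and 107 normalized counts in control and 639 and 622 in HP1a RNAi, a ratio of 5.55. CG3635 held 131 and 152 in control and 546 and 657 in HP1a RNAi, a ratio of 4.25. CG5731 held 42.1 and 59.9 in control and 179.9 and 277 in HP1a RNAi, a ratio of 4.48. The HP1a RNAi libraries of CG5731 were 1.54-fold apart. In all 3 genes each HP1a RNAi library exceeded both controls, as in every feature listed as higher.

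**Figure D2:**
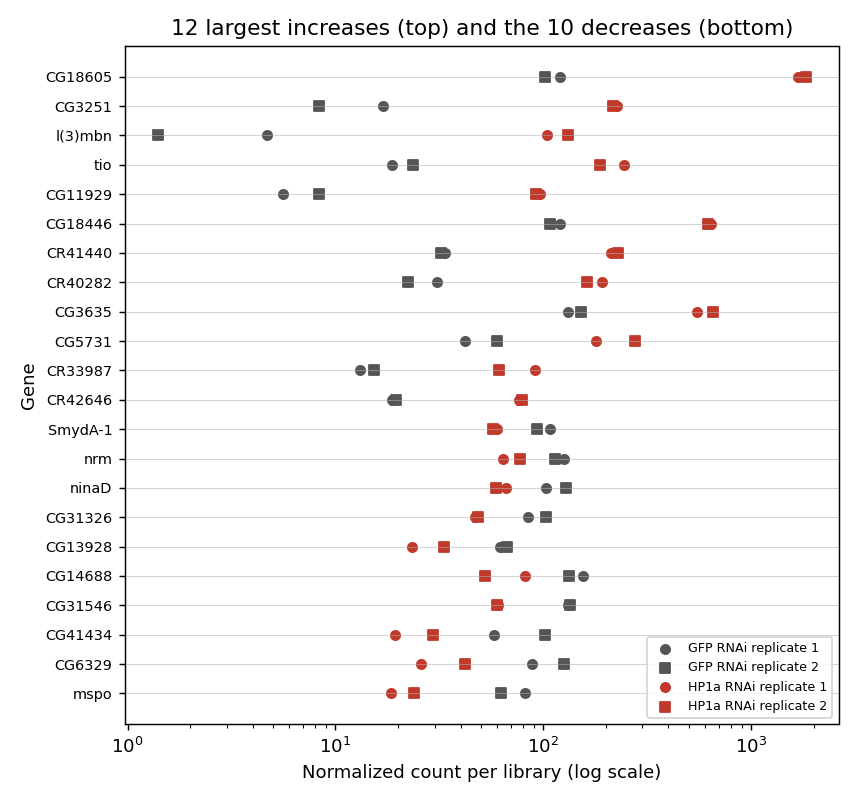
Normalized count of each library (log scale) for the 12 largest increases and the 10 decreases, ranked by the authors' log2 fold change; circles are replicate 1, squares replicate 2. In each gene the 2 HP1a RNAi libraries lie on the same side of both GFP libraries, which holds for every listed feature.

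The 10 lower genes had control means of at least 64.3 and ended between 21.2 and 70.4 normalized counts. Of all 73 genes, 6 were at least 2-fold lower and 3 at least 3-fold lower, against 16 and 5 of the 321 others. Over all 401 listed autosomal genes, 5.49% were at least 2-fold lower. The largest decrease was that of mspo (M-spondin), which encodes a secreted matrix protein of muscle. It held 81.4 and 62.7 normalized counts in control and 18.6 and 23.8 in HP1a RNAi, 3.40-fold lower, and the authors' deposited table gave a log2 fold change of -1.27 ± 0.27 (SE). CG41434, named Grl40a in the current annotation for its likeness to gustatory receptors, held 58.0 and 102 in control and 19.4 and 29.5 in HP1a RNAi, 3.27-fold lower. CG6329 held 88.0 and 125 in control and 25.8 and 41.9 in HP1a RNAi, 3.15-fold lower. In CG41434 and CG6329 the control libraries differed from each other by 1.75-fold and 1.43-fold, and the HP1a RNAi libraries by 1.52-fold and 1.62-fold.

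Smaller decreases came from genes of varied function. CG13928 held 61.8 and 66.9 normalized counts in control and 23.4 and 33.3 in HP1a RNAi, and CG31546 held 132 and 134 in control and 60.5 and 60.0 in HP1a RNAi. CG14688, named Phyhd1 in the annotation, held 155 and 132 in control and 81.5 and 52.3 in HP1a RNAi. These 3 genes were between 2.15-fold and 2.27-fold lower, with the tightest replicates in CG31546. CG31326 held 84.2 and 103 in control and 46.8 and 48.5 in HP1a RNAi, 1.97-fold lower. The scavenger receptor gene ninaD, needed for the uptake of carotenoids from which visual pigment is made, held 103 and 128 in control and 66.1 and 59.0 in HP1a RNAi, 1.85-fold lower. Another gene of that visual pigment pathway, ninaG, which encodes an oxidoreductase, moved the other way, from 54.3 and 37.6 to 99.2 and 97.1. Neuromusculin (nrm), a cell adhesion gene, held 126 and 114 in control and 63.7 and 77.1 in HP1a RNAi, and SmydA-1, of the family with SET and MYND domains, held 108 and 93.4 in control and 59.7 and 57.1 in HP1a RNAi. They were 1.71-fold and 1.72-fold lower.

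Counterparts that crossed the same level downward were few. Of the listed autosomal genes at 150 or more in control, 8 fell below 150 in HP1a RNAi. The largest such decrease was that of the serpin gene Spn88Eb, which held 300.4 and 259 normalized counts in control and 79.0 and 77.1 in HP1a RNAi, 3.58-fold lower. Others were CG10834 (399 in control and 137 in HP1a RNAi), CG5783 (264 and 99.6) and tutl, an immunoglobulin family gene (328 and 119).

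Position was not used by the selection beyond leaving out chromosomes X and 4. The genes were spread over arm 2L (20), 2R (22), 3L (14) and 3R (16), and CG31856 had no position in the file. Positions are those of the deposited file, and for all 70 genes found in the BDGP6 (dm6) annotation they were the same there. Their median distance from the centromere side of the arm, 14231 kb, was close to that of the other listed autosomal genes, 14132 kb. Near the centromere the shares were larger. Within 5 Mb of that end lay 13 of 72 genes (18.1%), 24 of 320 others (7.5%) and 5.83% of all annotated autosomal coding genes. Cht3, which was left out by name, lies 390 kb from that end of 2L, and neither the 72 genes nor the 320 others include it. Neighbouring genes are not independent, and no test of the difference in shares was made.

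The edge of 2L showed increases and decreases side by side. Its last 2 Mb held 17 listed genes, of which 7 were higher and 10 lower, and 5 of the 17 belong to the genes described here. They were tio, CR33987, CG3635 and Ir40a, all higher, and CG41434, which was lower. Ir40a, which encodes an ionotropic receptor for dry air, lies 5534 bp from CG3635 and held 23.4 and 20.9 normalized counts in control and 51.6 and 61.9 in HP1a RNAi, a ratio of 2.56. CG41434 lies 12125 bp beyond tio and ends 954 bp from CG31601, a gene on the other strand that was 2.03-fold higher, at 2078 normalized counts in control and 4208 in HP1a RNAi. Over all arms, 8 pairs of the 73 genes lay within 20 kb of each other, and 13 genes took part in them.

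**Figure D3:**
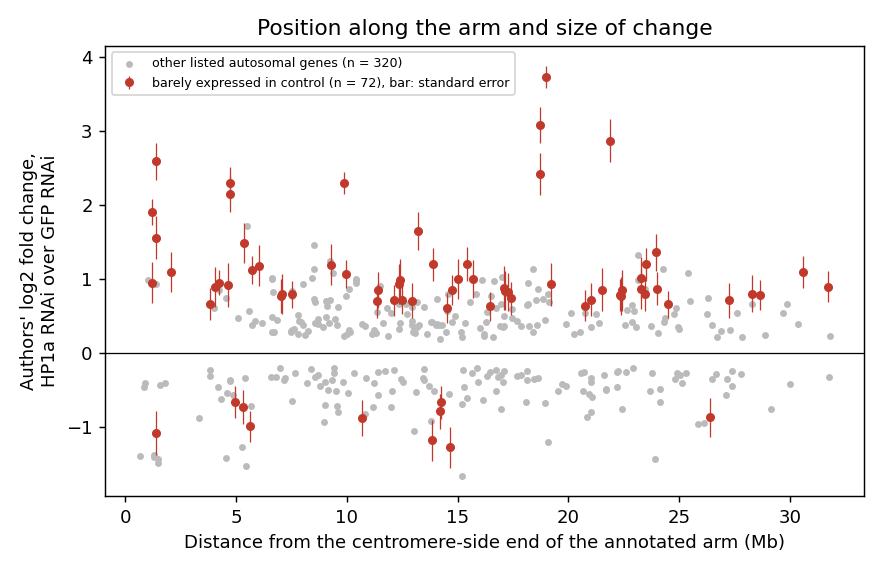
Log2 fold change of the authors' deposited table, HP1a RNAi over GFP RNAi, against distance from the centromere-side end of the annotated arm in Mb, for the 72 genes with a position (red, bars are the authors' standard errors) and 320 other listed autosomal genes (grey). Increases and decreases occur along the arms, and 13 of 72 genes lie within 5 Mb of that end.

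The genes were shorter than the other listed ones. The median gene span was 2337 bp, against 3663.5 bp for the others and 2088 bp for all annotated autosomal coding genes, and the median number of separate exon blocks was 3 against 5 for the others. Of the 70 annotated genes, 66 are protein-coding, 2 are non-coding RNAs and 2 are pseudogenes. An annotated transposon insertion lay within 5 kb of 26 of 72 genes (36.1%), 30.6% of the others and 22.3% of all annotated autosomal coding genes. Among the 12 largest increases, 7 had such an insertion, but these genes are not independent. They include tio and CR33987, which overlap, and CR40282 and CR41440, which lie 272 bp apart. These insertions are those of the reference genome, and S2 cells may carry others. Exons of 15 of the 70 genes (21.4%) overlap those of another gene, so their reads are uncertain, against 32.1% of the others.

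Few of the genes stood in the gene lists examined. Of the 15 gene lists examined, 7 had no gene among the 73, and 63 of the 73 genes stood in no list. No gene of the germline and testis, neuronal, muscle, adhesion, humoral immune, G protein-coupled receptor or serine protease lists was among them, but the selection had left out vas, osk, modSP and NimB1 by name, so these absences are partly set by it. The lists are not complete either, since they hold neither the adhesion gene nrm nor mspo. The germline and testis list matched 39 annotated genes and the serine protease list 49. A list with no gene among the 73 therefore does not show that genes of that kind were absent. Of all features tested, 6.46% were listed, and 64.7% of the listed features were higher. How many genes of each list were tested is not known. In the whole HP1a table the detoxification list had 11 listed genes of 64, all higher, and GstD7 and Sod3 were among the 73. GstD7, a glutathione transferase, held 89.8 and 71.1 normalized counts in control and 140.3 and 250.3 in HP1a RNAi. Sod3, the extracellular superoxide dismutase, held 73.9 and 96.2 in control and 133 and 169 in HP1a RNAi. The haemocyte list had 6 listed genes of 25, all higher, of which l(3)mbn was barely expressed in control.

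The other lists with a gene among the 73 stand beside the same 6.46% of all tested features that were listed, with the same limit. The list of ion channels and transporters, which lacks the ion channel gene rpk, had 5 listed genes of 108, all higher. Of these, the organic anion transporter Oatp30B held 100.1 and 118 normalized counts in control and 242 and 343 in HP1a RNAi, and the zinc transporter ZnT77C held 114 and 134 in control and 213 and 243 in HP1a RNAi. The cuticle list had 5 listed genes of 176, 4 higher and 1 lower, with l(3)mbn and TwdlG, a cuticle protein of the Tweedle family, among the 73. Developmental transcription factors had 8 listed genes of 109, 5 higher and 3 lower, with tio among the 73. Chemosensory genes had 2 listed of 281, both higher, with Ir40a among the 73. Gut and fat body genes had 2 listed of 29, both higher, with the digestive enzyme gene Amy-p among the 73. Signalling ligands and receptors had 11 listed of 82, 4 higher and 7 lower, and the growth factor receptor gene Egfr was among the 73.

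In several of these genes the size of the increase rested on replicate 2 of HP1a RNAi. Egfr held 131 and 125 normalized counts in control and 182 and 456 in HP1a RNAi. Amy-p held 73.0 and 62.7 in control and 105 and 264 in HP1a RNAi, and CG11395 (Gbp2, a growth-blocking peptide) held 119 and 138 in control and 193 and 378 in HP1a RNAi. The ratio of means was 2.49 for Egfr, 2.72 for Amy-p and 2.22 for CG11395, and the HP1a RNAi libraries were 2.50-fold, 2.51-fold and 1.96-fold apart. Without replicate 2 of HP1a RNAi the ratio was 1.42 for Egfr and 1.55 for Amy-p. Besides these, l(3)mbn and CG3251, the only ratio that moved by more than 1.5 times without a single library was that of the ion channel gene rpk, at 2.92 with all libraries and 4.51 without replicate 1 of control. Across the 73 genes, the HP1a RNAi libraries were at least 1.5-fold apart in 15, against 8 of the 321 others. Replicate 2 was above replicate 1 in 48 of the 73 and in 152 of the 321. The median read number of these genes was 78 and 49 in the control libraries and 151 and 138 in the HP1a RNAi libraries, so counting error is larger here than among the others, whose medians were between 1689 and 3035 reads.

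**Figure D4:**
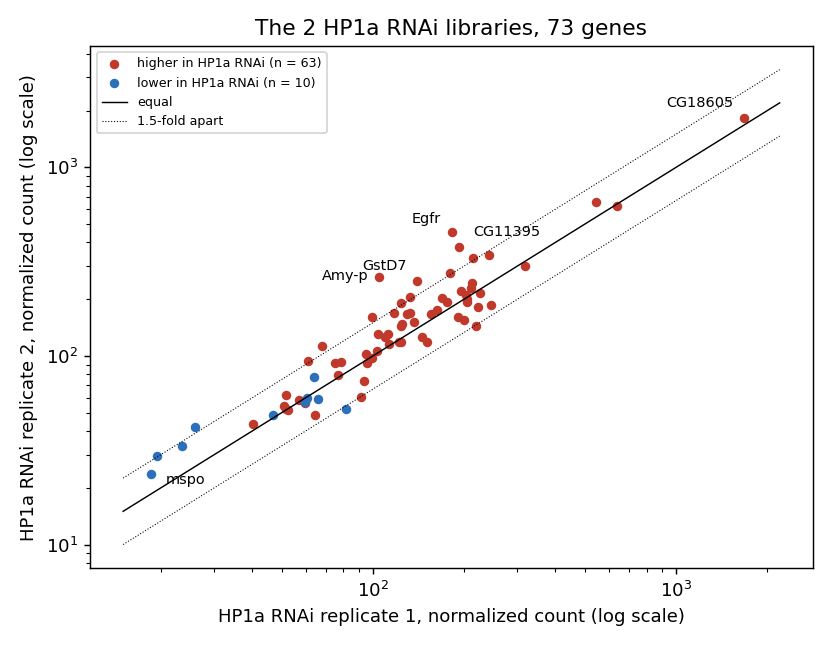
Normalized counts of the 2 HP1a RNAi libraries against each other on log scales for the 73 genes; the solid line marks equality and the dotted lines 1.5-fold differences. Replicate 2 exceeds replicate 1 in 48 genes, and 15 genes lie on or outside the dotted lines, among them Egfr, Amy-p, CG11395 and GstD7.

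A second model was fitted to the same libraries and only to features already listed, so most of its calls were set in advance. Limma on log2 normalized counts, adjusted by Benjamini-Hochberg over all 535 listed features, called 72 of the 73 genes, 62 higher and 10 lower, against 98.1% of all listed features. Nothing is read from that share, since the features were listed from the same libraries. The exception was Egfr, with a limma adjusted p of 0.0517. When single libraries were left out, 6 genes were not called in at least 1 of the 4 fits (Amy-p, CG11395, CG13321, CG31642, Egfr and hng3). Such a fit has 1 library in a group, and that library is assumed to vary like those of the other group. For Amy-p the limma log2 difference was 1.29 with all libraries and 1.39 and 1.18 in the fits without a control library, where its call was lost, so the loss came with little change in size. For Egfr these values were 1.16, 1.19 and 1.13.

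The limit of 150 fell within a continuous range of control levels. Just inside it were CG14688, given above, and TwdlG, which held 163 and 137 normalized counts in control and 317 and 302 in HP1a RNAi. Just outside were CG6040, with 155 and 146 in control and 228 and 365 in HP1a RNAi, and Ugt36Ba, with 145 and 157 in control and 311 and 338 in HP1a RNAi. The ratios of the last 3 were 2.07, 1.97 and 2.14.

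The libraries labelled dKDM4A RNAi had a table of their own, set against the same 2 control libraries and normalized separately. It listed 1.19% of its tested features (0.876% higher and 0.319% lower), and 1 of the 73 genes, CG5697. In that table CG5697 held 61.9 and 65.0 normalized counts in control and 157 and 148 in the libraries labelled dKDM4A RNAi, a ratio of 2.41. In the HP1a table it held 73.0 and 76.7 in control and 151 and 119 in HP1a RNAi, a ratio of 1.80. Because the controls are shared, the values stand side by side with no test of their likeness. The other 72 genes were not listed there, and their values in those libraries were not analysed here.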

How the data were processed

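Polyadenylated RNA of 6 S2 cell libraries (3 groups of 2) was measured. TopHat, Bowtie and DESeq2 are tools in the submitters' processing notes, with no version or role. Build and strand setting are not given in the sources used here. The signal columns hold normalized counts, which the authors scaled library by library and table by table, per the file headers. The log2 fold changes, their standard errors, the score (fold change over standard error) and the p-values are the authors', per the file headers, and every row had an adjusted p under 0.05. Values below 400 normalized counts were whole multiples of 1 read within 0.1 reads in 100% of cases, with 1 read worth between 0.807 and 1.39 normalized counts. Raw counts and library totals were not analysed here, so no count test was run and depth is known only through these reads. The exact intervals of pooled reads rest on read numbers recovered in this way. There was 1 row without values in each table, which was left out.

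Ratios are of mean normalized counts. Limma 3.58.1 (R 4.3.3) was fitted to log2(normalized count + 1) over all 535 listed rows of the HP1a table with a minimum mean of 1, after a check on simulated data; folds on that scale understate changes of low genes. Symbols, exons and transposon insertions came from the BDGP6 annotation by gene identifier (70 of 73 genes matched; CG31856, nrm and CG43795 did not, and the symbol CG43795 also stands under another identifier). Promoter sequences were not analysed here. Named genes are the 12 largest increases, all 10 decreases, the lowest control levels, genes nearest the limit, list members, nearest pairs and genes listed for both treatments; Ugt-named and other genes beside them, ninaG, CG11395 and the relatives of other genes were chosen after their values were seen. The genes and lists were chosen with earlier results of these data known. Python 3.11.15, numpy 2.4.6, pandas 2.3.3 and matplotlib 3.10.9 were used.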

Additional observations from a re-analysis of the deposited data

How the results depend on the processing

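Leaving out a single library could not change a direction, because the groups of every listed feature were apart (63 to 63 higher and 10 to 10 lower). Requiring 0.01 for the adjusted p of the authors' deposited table left 34 higher and 5 lower. A control limit of 100 gave 51 higher and 4 lower, and a limit of 300 gave 88 higher and 16 lower, with 3 genes also listed for dKDM4A in place of 1. At least 2-fold higher were 45 genes, and 39 to 44 when single libraries were left out, not all of them among the 45. The number was 25 by the authors' deposited log2 fold change and 29 with a pseudocount of 20 on both means, which by its construction lowers the ratio of low genes most. Limma called 72 genes, between 69 and 72 without single libraries, 61 of 61 fitted at a minimum mean of 50, and 73 with a pseudocount of 5. The replicate block gave 73. Replicate numbers are only shared: deviations of same-numbered libraries correlated at 0.237 over 535 features and 0.123 over the 73 genes, with 2 pairs. Of 31 named genes over 7 alternatives, Amy-p lost its limma call (adjusted p up to 0.0995) and Egfr gained it with some alternatives (highest adjusted p 0.106). Low reads limit single-gene sizes, most of all in l(3)mbn with 6 control reads. The causes were not tested.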

Other observations

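Among the higher genes were 8 that are second copies or close relatives of another gene; they were picked after their values were seen, so no test applies. Rpt6R, a relative of the proteasome ATPase gene Rpt6, was at 86.0 normalized counts in control and 206 in HP1a RNAi, a ratio of 2.40. The relative of a transcription and mRNA export factor, e(y)2b, had a ratio of 2.15. CG4415, related to the nascent polypeptide associated subunit gene Nacalpha, had 2.04, and Ef1alpha100E, the second gene of translation elongation factor 1 alpha, had 2.03. CG10262, related to the replication clamp gene PCNA, had 1.72, and SkpB, related to the ubiquitin ligase subunit gene SkpA, had 1.77. The homeobox gene vis, near-identical to achi, had 1.76, and Amy-p, near-identical to Amy-d, had 2.72; the counting could have split reads between these copies, so both are uncertain. None of the 8 relatives was listed for HP1a RNAi, but only 6.46% of all features tested were, so nothing is read from that.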
